A study of Mus musculus with 12 samples.

Results

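Sialyltransferases are the Golgi enzymes that add sialic acid to the ends of glycan chains on proteins and lipids, and 10 of them are described here: St6gal1, St6gal2, St6galnac3, St6galnac4, St6galnac5, St6galnac6, St3gal5, St8sia1, St8sia2 and St8sia4. They were found by gene symbol among the 34745 genes of the deposited table, where the mouse family has 20 genes, so that 10 other sialyltransferases are not among them. The 10 genes were chosen on expression values (counts and FPKM) of these same libraries, so their levels and fold changes are given as a description, with no test of their own. The RNA came from wild type neural stem cells (NSCs) cultured from the hippocampus of C57BL/6 mice, in a medium with B27 supplement, epidermal growth factor, basic fibroblast growth factor and heparin that all groups shared. One group of libraries (P2, n = 4) came from passage 2. The other cultures reached passage 10, after treatment between these passages with ESC-sEVs (P10 EV, n = 4), the small extracellular vesicles shed by embryonic stem cells, or with the same volume of phosphate-buffered saline (P10 PBS, n = 4). P10 PBS against P2 addresses long culture, and P10 EV against P10 PBS addresses the vesicles, which the title of the series describes as rejuvenating. The sources used here give neither the age of the mice nor whether animals were pooled. Libraries with the same replicate number have 1 culture code in their labels across the groups, and whether a code is 1 animal is not stated.

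The enzymes differ in the sugar they extend and in the bond they make. ST6Gal enzymes cap galactose on N-glycans and related chains, and ST6GalNAc enzymes add a side branch to N-acetylgalactosamine in O-glycans and gangliosides. St3gal5 makes GM3, the ganglioside from which most others are built, and St8sia1 turns GM3 into GD3, a ganglioside found on NSCs. St8sia2 and St8sia4 build polysialic acid, a long chain carried mainly by the adhesion molecule NCAM on migrating precursors and young neurons in the hippocampus.

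The promoters of St6gal2, St8sia2 and St8sia4 are shown because St6gal2 was the only one of the 10 called in the all-gene fit and because the other two make the same product, polysialic acid. Each sequence is the 250 bases before a RefSeq transcription start in GRCm38.p6, read in the direction of transcription, from chr17:55445132-55445381 (plus strand), chr7:74013683-74013932 (minus strand) and chr1:95667595-95667844 (minus strand). Capitals mark the GC box GGGCGG, the CCAAT box, and their reverse complements CCGCCC and ATTGG.
St6gal2: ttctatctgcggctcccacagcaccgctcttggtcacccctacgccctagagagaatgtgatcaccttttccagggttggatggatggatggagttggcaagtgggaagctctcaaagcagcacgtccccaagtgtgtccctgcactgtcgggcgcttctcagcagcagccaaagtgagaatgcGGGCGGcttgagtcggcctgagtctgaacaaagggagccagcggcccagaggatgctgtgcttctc
St8sia2: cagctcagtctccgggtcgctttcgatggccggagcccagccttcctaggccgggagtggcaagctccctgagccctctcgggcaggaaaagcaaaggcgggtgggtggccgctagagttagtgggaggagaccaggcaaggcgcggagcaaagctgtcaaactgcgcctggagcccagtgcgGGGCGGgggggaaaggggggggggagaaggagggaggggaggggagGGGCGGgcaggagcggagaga
St8sia4: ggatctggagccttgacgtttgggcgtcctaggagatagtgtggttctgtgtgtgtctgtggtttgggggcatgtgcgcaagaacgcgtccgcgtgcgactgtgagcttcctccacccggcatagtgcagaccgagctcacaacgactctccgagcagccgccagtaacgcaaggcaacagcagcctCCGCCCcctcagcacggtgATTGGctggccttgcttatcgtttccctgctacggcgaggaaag
St6gal2 had 1 GC box, 60 bases before its start, and 10 CG pairs. St8sia2 had 2 GC boxes, the nearer of them 15 bases before the start, and 15 CG pairs. St8sia4 had 1 GC box, 1 CCAAT box and 19 CG pairs. Of 32851 mouse promoter windows of this length in the same table, 32.7% held a GC box and 33.8% a CCAAT box, and the median number of CG pairs was 6. The letters AAGTT, the core of the motif bound by Myt1, the factor in the title of the series, were searched on both strands and were not in these 3 windows; 35.3% of all windows held them. Windows were found for 9 of the 10 genes, and 7 of their 11 windows held a GC box.

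Libraries held 10736538 to 16807647 counts and 19698 to 20562 genes with a read. The NSC label was checked against its markers, 12 of 12 of which reached 1 CPM (CPM is the count scaled to the TMM-adjusted total of its library) in each group, with Nes and Sox2 among them. Replicate 1 of P2 stood apart: on the first principal component, with 33.9% of the variance, it lay at -24.6, among the P10 libraries (-25.9 to -4.9) and not with the other P2 libraries (19.6 to 72.1). Liver transcripts, with Alb at 16.3 to 21.5 CPM, were found in replicates 1 and 2 of P2 and in replicate 1 of P10 PBS and of P10 EV. Replicates 1 and 2 of every group expressed Xist, whereas replicates 3 and 4 expressed Y-linked genes. Results that rest on these libraries are given with and without them.

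All 10 genes passed the filter on low counts (at least 10 reads in enough libraries). St8sia2 was above this minimum in 3 of 4 P10 PBS libraries, and the other 9 were above it in all libraries. In the quasi-likelihood fit of edgeR over 16058 genes, 1 of the 10 was called at an adjusted p under 0.05 between P10 PBS and P2, where 149 genes in all (0.928%) were called, and 1 of 10 between P10 EV and P2, where 94 genes (0.585%) were called. That gene was St6gal2 in both, and it was higher at passage 10. Between P10 EV and P10 PBS 0 of the 10 and 0 genes in all (0%) were called. At an unadjusted p under 0.05 the counts were 5 of 10 between P10 PBS and P2 (13.6% of all genes), 1 of 10 between P10 EV and P10 PBS (7.24%) and 4 of 10 between P10 EV and P2 (19.2%). In CPM, the 4 libraries of each group did not overlap for 2 of the 10 in each comparison. This was true of 5.7% of all genes for P10 PBS and P2, 7.58% for P10 EV and P10 PBS, and 9.02% for P10 EV and P2. The median log2 fold change of the 10 was 0.229, -0.048 and 0.035 in these 3 comparisons, in that order, and -0.008, 0.009 and -0.011 over all genes tested. Comparisons share libraries, so the values against P2 are not separate evidence of each other, and because values chose the genes, nothing is read from these counts.

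**Figure D1:**
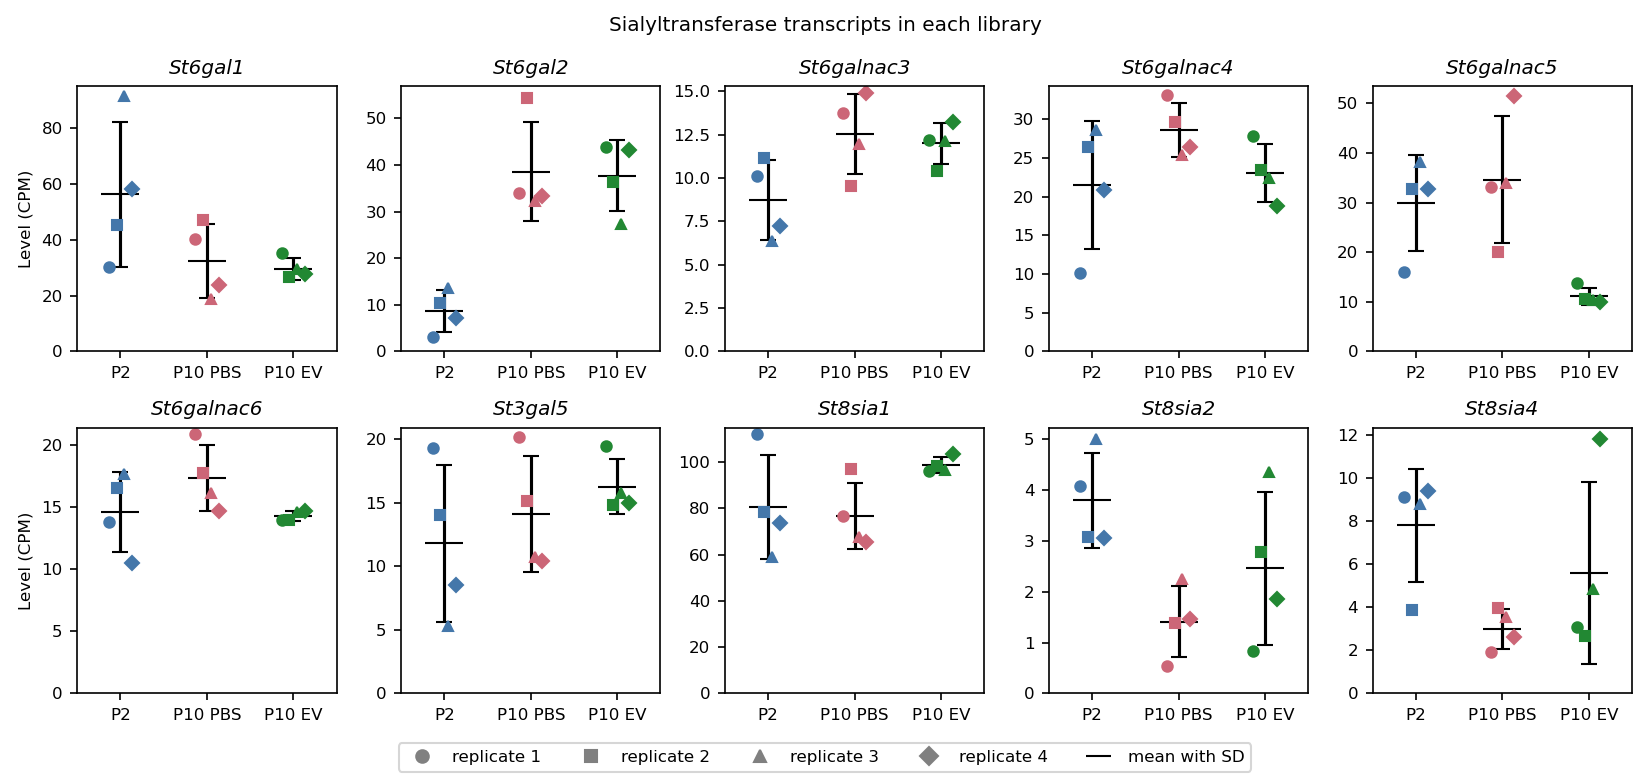
Level of each of the 10 sialyltransferase transcripts (CPM, linear axis from 0) in the 12 libraries, by group; symbols mark replicate numbers and bars the mean with SD of 4 libraries. St6gal2 lies at 3.07 to 13.6 CPM in P2 and at 27.4 to 54.4 CPM in both P10 groups, and St6galnac5 lies at 10.1 to 13.7 CPM in P10 EV, below the other groups.

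St6gal2, which acts on free and LacdiNAc-type chains and is known mainly from brain, was the gene of the 10 that differed most with passage. It is ENSMUSG00000024172, at chromosome 17, 55445382 to 55514581, in the deposited coordinates, which for all 10 genes equal those of GENCODE M21 on GRCm38. In replicates 1 to 4 its level was 3.07, 10.4, 13.6 and 7.26 CPM at P2 (43 to 161 reads). P10 PBS libraries had 34.0, 54.4, 32.3 and 33.4 CPM, and P10 EV libraries had 43.8, 36.4, 27.4 and 43.2 CPM. Every passage 10 library was above every P2 library, and the ranges of both P10 groups overlapped. The mean was 8.60 ± 4.51 CPM at P2, 38.5 ± 10.6 CPM in P10 PBS and 37.7 ± 7.64 CPM in P10 EV (SD, n = 4 each). This was a log2 fold change of 2.17 ± 0.36 (SE) for P10 PBS over P2 and of 2.14 ± 0.36 for P10 EV over P2, about 4.5-fold and 4.4-fold. P10 EV over P10 PBS was -0.03 ± 0.34. Without replicate 1 of P2, the lowest library, the log2 values over P2 were 1.89 and 1.87, and without the 4 libraries with liver transcripts they were 1.94 and 1.78. St6gal2 lost its call against P2 in both P10 groups when replicate 4 of P2 was left out or when the 8 libraries of a comparison were fitted alone, and in P10 EV also without replicate 1, 2 or 4 of that group. Sox10 and Pdgfra, markers of oligodendrocyte progenitors, were higher in 3 of the 4 P2 libraries than at passage 10. Sox10 was at 5.28, 108, 119 and 55.1 CPM at P2. It was at 1.84 to 5.67 CPM in P10 PBS and 3.95 to 18.9 CPM in P10 EV. Pdgfra was at 15.8, 100.3, 134.5 and 84.6 CPM at P2. Its level was 13.6 to 20.2 CPM in P10 PBS and 24.3 to 63.3 CPM in P10 EV. Olig2, another marker of the lineage, was not higher at P2. It was at 952, 983, 652 and 688 CPM in P2 replicates 1 to 4. P10 PBS libraries had 896 to 1084 CPM of Olig2 and P10 EV libraries 923 to 1078 CPM. Of the 9 markers of the whole lineage, 7 reached 1 CPM in each group, with a summed level of 2166 to 3274 CPM at P2, 2311 to 3024 CPM in P10 PBS and 2563 to 2904 CPM in P10 EV, and Mag was at 0 in P10 EV. The part of these cells in the St6gal2 difference was not tested.

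St6gal1, the broadly expressed enzyme that makes most of the same bond on N-glycans, had lower means at passage 10. P2 libraries had 30.3, 45.2, 91.4 and 58.2 CPM, P10 PBS libraries 40.4, 46.9, 18.6 and 23.7 CPM, and P10 EV libraries 35.4, 26.5, 29.4 and 27.6 CPM. The groups overlapped. P10 PBS libraries 3 and 4 were low against P2 libraries of the same number (log2 ratios of -2.3 and -1.3), but libraries 1 and 2 were not (0.41 and 0.06). The log2 fold change was -0.80 ± 0.33 for P10 PBS over P2, -0.92 ± 0.33 for P10 EV over P2 and -0.13 ± 0.33 for P10 EV over P10 PBS, and St6gal1 was not called. Leaving out 1 library at a time gave -1.02 to -0.45 for P10 PBS over P2, the smallest drop without replicate 3 of P2. For P10 EV over P2 it gave -1.11 to -0.59. Without the libraries with liver transcripts, P10 PBS over P2 was -1.33 and P10 EV over P2 -1.42, and St6gal1 was called lower in both. Of P2, that fit kept only replicates 3 and 4, both with Y-linked genes. It called 2320 and 3335 genes in all, against 149 and 94 with every library. The 2 P10 PBS libraries with ratios above 0 are those with Xist, and 1 of them held liver transcripts, as did both P2 libraries of the same numbers. At P2 the libraries with liver transcripts were also those with Xist, so sex and liver RNA cannot be told apart there. The part of sex or liver RNA in these ratios was not tested. Astrocyte markers were as uneven at P2: all 6 reached 1 CPM in every group and 0 of them were at 0, and their summed level was 868 to 3818 CPM at P2, 953 to 1644 CPM in P10 PBS and 728 to 900 CPM in P10 EV. Gfap was 1.36, 18.9, 346 and 44.9 CPM in P2 replicates 1 to 4, the same order as St6gal1. In both P10 groups its order differed from that of St6gal1. Gfap was 32.6, 5.05, 4.12 and 4.14 CPM in P10 PBS and 5.97, 6.30, 19.9 and 5.90 CPM in P10 EV. The part of astrocytes in these levels was not tested. In bulk RNA, fewer cells of a type and less RNA per cell cannot be told apart.

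Per gene length, the ratio of St6gal1 to St6gal2 differed between P2 and passage 10 with no overlap. St6gal2 by itself separated these libraries and St6gal1 did not, so the ratio is no separate result. In FPKM, which scales counts by gene length and library total, it was 10.2, 4.45, 6.91 and 8.25 in the P2 libraries. The P10 PBS libraries had 1.22, 0.888, 0.593 and 0.729, and the P10 EV libraries 0.830, 0.751, 1.10 and 0.657. The sum of both FPKM was 6.74 ± 3.01 at P2, 7.32 ± 2.44 in P10 PBS and 7.22 ± 0.964 in P10 EV (SD, n = 4), so the groups differed in the ratio and overlapped in the sum. Among the 20 family genes, St6gal2 ranked 13 by mean FPKM at P2, 7 in P10 PBS and 6 in P10 EV, while St6gal1 ranked 3, 8 and 7.

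**Figure D2:**
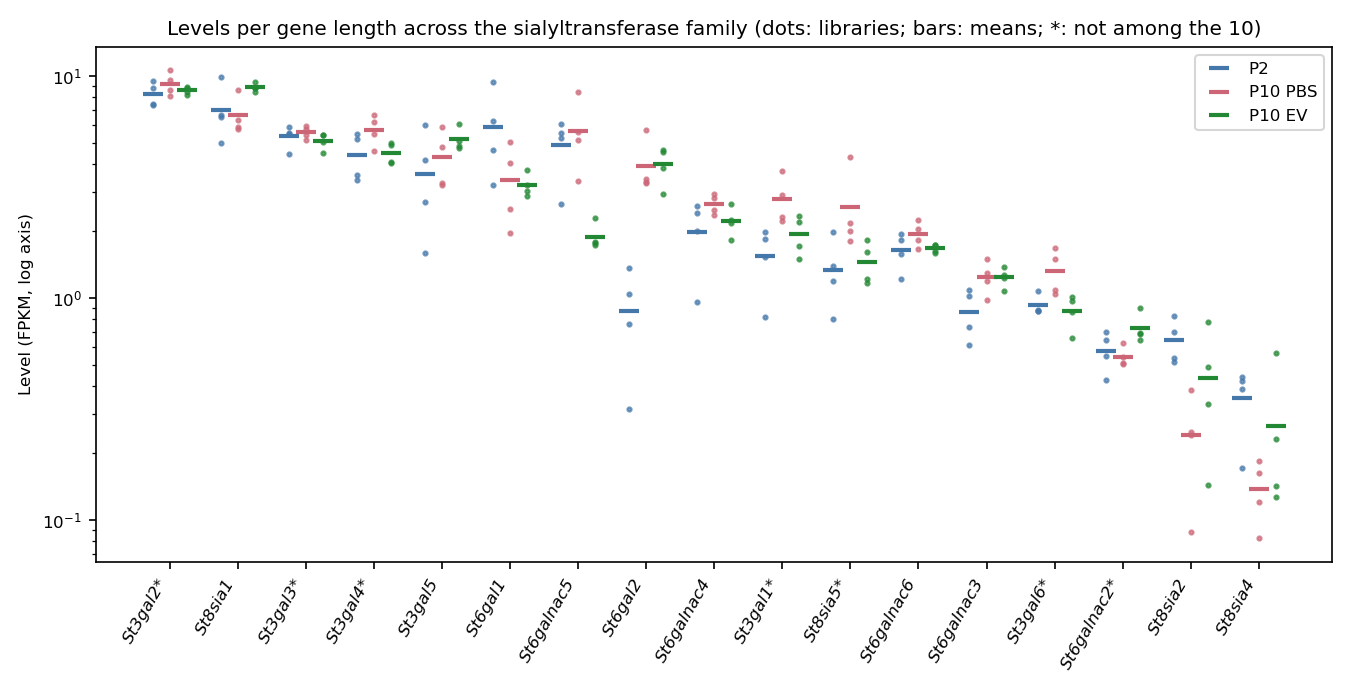
Level per gene length (FPKM, log axis) of the 17 sialyltransferase genes that passed the filter, dots for the 12 libraries and bars for the mean of 4; an asterisk marks genes outside the 10 described. St3gal2 and St8sia1 have the highest means in each group, St8sia4 has the lowest, and St6gal2 moves from 0.869 at P2 to 3.93 in P10 PBS and 3.99 in P10 EV.

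St6galnac5, which adds the side branch of the alpha-series ganglioside GD1alpha and is known from brain, was the gene of the 10 that differed most between the P10 groups. It is ENSMUSG00000039037, at chromosome 3, 152817081 to 152982246, on the minus strand. Its level in replicates 1 to 4 was 16.1, 32.7, 38.2 and 32.8 CPM at P2 and 33.2, 20.1, 33.9 and 51.4 CPM in P10 PBS. P10 EV libraries had 13.7, 10.6, 10.3 and 10.1 CPM (125 to 232 reads). All P10 EV libraries lay below all libraries of P2 and of P10 PBS, and they spread less than the others, with a coefficient of variation of 15.4% against 32.1% and 37.1%. The mean was 29.9 ± 9.60, 34.6 ± 12.85 and 11.2 ± 1.72 CPM in P2, P10 PBS and P10 EV (SD, n = 4). P10 EV over P10 PBS had a log2 fold change of -1.63 ± 0.30, P10 EV over P2 of -1.42 ± 0.29 and P10 PBS over P2 of 0.21 ± 0.29. Replicate by replicate, the log2 ratio of P10 EV to P10 PBS was -1.27, -0.93, -1.72 and -2.35. St6galnac5 was not called in either comparison in the all-gene fit. The Wald test of DESeq2 called it in both, as the single gene of the 10 that any alternative called between P10 EV and P10 PBS. Leaving out 1 library at a time left that log2 value between -1.82 and -1.38, and leaving out the libraries with liver transcripts gave -1.77.

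The other ST6GalNAc enzymes differed less. St6galnac3, which acts on sialylated O-glycans and gangliosides and lies on chromosome 3 at 216019 bases from St6galnac5, had 8.73 ± 2.296 CPM at P2, 12.5 ± 2.33 in P10 PBS and 12 ± 1.17 in P10 EV (SD, n = 4). Its groups overlapped, and its log2 fold change was 0.52 ± 0.21 for P10 PBS over P2, -0.07 ± 0.21 for P10 EV over P10 PBS and 0.46 ± 0.21 for P10 EV over P2. Without the libraries with liver transcripts the values over P2 were 0.84 and 0.82, and it was called higher in both. That fit kept only replicates 3 and 4 of P2 and called 2320 and 3335 genes in all. St6galnac4, which makes the disialylated core of O-glycans, was at 10.1, 26.4, 28.7 and 20.9 CPM at P2, and its low value was in the P2 library that stood apart. Its log2 fold change for P10 PBS over P2 was 0.41 ± 0.26, and 0.18 without that library. P10 EV over P10 PBS was -0.31 ± 0.26, with log2 ratios of -0.25, -0.34, -0.18 and -0.50 between libraries of the same number. St6galnac6, an enzyme of the same gangliosides as St6galnac5, had 14.6 ± 3.20, 17.3 ± 2.65 and 14.3 ± 0.405 CPM (SD, n = 4). Its P10 EV libraries (13.94 to 14.65 CPM) all lay just below its P10 PBS libraries (14.67 to 20.85 CPM), with a gap far smaller than the spread of P10 PBS, at a log2 fold change of -0.28 ± 0.17. In FPKM the ranges of St6galnac6 overlapped, at 1.599 to 1.729 in P10 EV and 1.664 to 2.232 in P10 PBS. St6galnac4 and St6galnac6 are neighbours on chromosome 2 on the same strand, and 10 bases separate the end of the first (32587095 to 32599698) from the start of the second (32599709 to 32620806) in the deposited coordinates. Reads near that junction could be counted to either gene, and the sources used here do not say how they were treated.

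**Figure D3:**
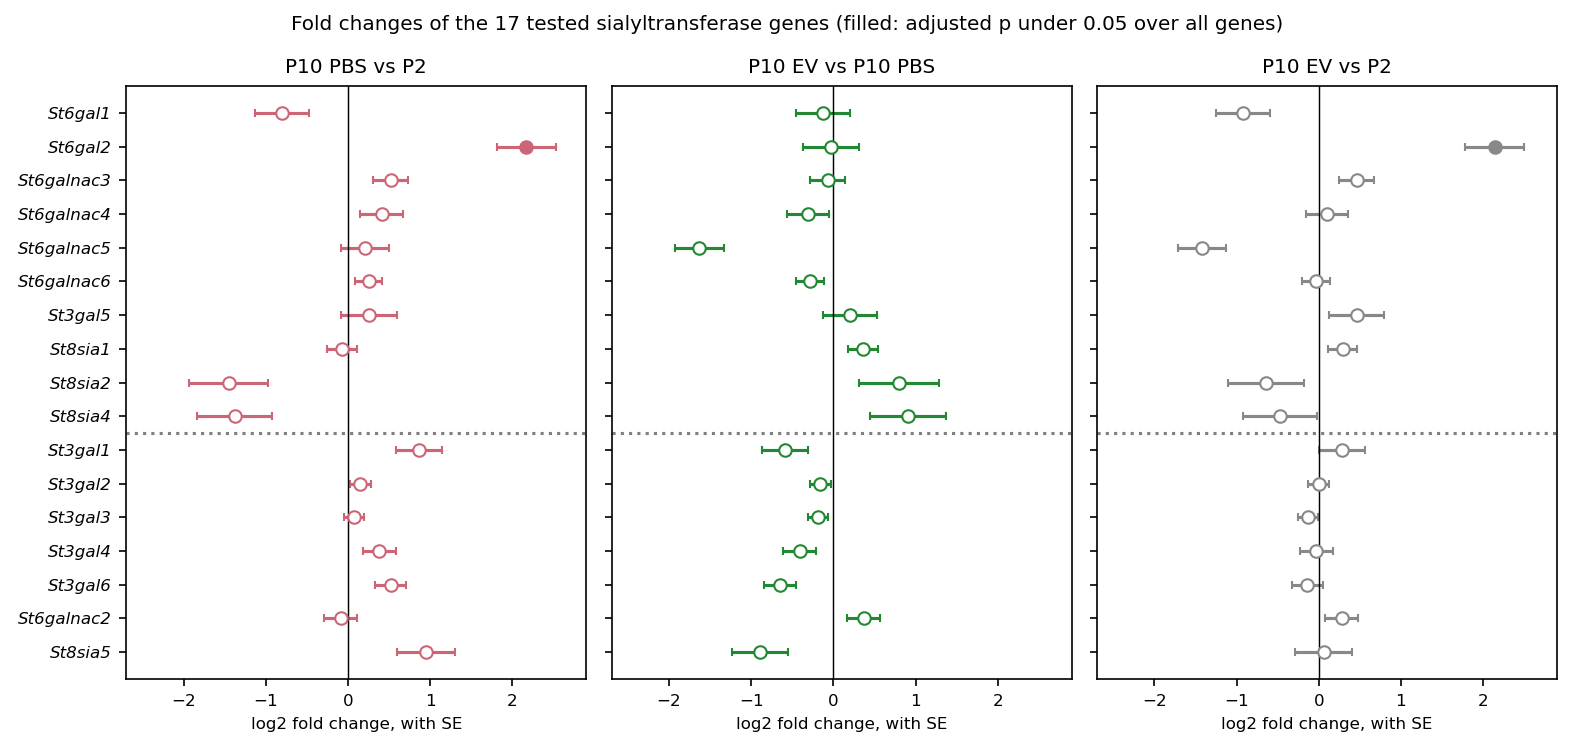
Log2 fold change with SE of the 17 tested sialyltransferase genes in the 3 comparisons, from the fit over all genes; the 10 genes described are above the dotted line and filled points were called at an adjusted p under 0.05. St6gal2 is the single filled point, at 2.17 for P10 PBS and 2.14 for P10 EV over P2, and St6galnac5 lies lowest between the P10 groups, at -1.63.

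Of the enzymes at the start of the ganglioside path, St8sia1, the GD3 synthase, was the most abundant of the 10 per gene length in each group, with 6.999 ± 2.04 FPKM at P2, 6.64 ± 1.35 in P10 PBS and 8.87 ± 0.385 in P10 EV (SD, n = 4). In CPM its libraries were 112.0, 78.2, 58.9 and 73.5 at P2, 76.6, 97.0, 67.6 and 65.6 in P10 PBS, and 96.1, 98.2, 96.5 and 103.4 in P10 EV. The P10 EV libraries were nearly level, with a coefficient of variation of 3.42% against 27.9% at P2 and 18.7% in P10 PBS, and they overlapped both other groups. Against P10 PBS libraries of the same number the log2 ratios were 0.33, 0.02, 0.51 and 0.66. Its log2 fold change was 0.36 ± 0.18 for P10 EV over P10 PBS and 0.29 ± 0.18 for P10 EV over P2, and it was not called. Without the P2 library that stood apart, which held the highest value, P10 EV over P2 was 0.50 and St8sia1 was called higher. In that fit 2821 genes in all were called between P10 EV and P2. Over all fits with 1 library left out, P10 EV over P2 was 0.15 to 0.50 for St8sia1. As a share of the summed FPKM of the family, St8sia1 made up 13.9% ± 4.01 at P2, 11.5% ± 1.90 in P10 PBS and 17.02% ± 1.24 in P10 EV (SD, n = 4).

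St3gal5, the GM3 synthase that supplies the substrate of St8sia1, was uneven at P2, at 19.3, 14.0, 5.33 and 8.57 CPM. Its P10 PBS libraries had 20.2, 15.2, 10.8 and 10.46 CPM and its P10 EV libraries 19.5, 14.9, 15.8 and 15.0 CPM. Replicates 1 and 2 were above replicates 3 and 4 in P2 and in P10 PBS, but not in P10 EV, where replicate 2 was lowest. Replicates 1 and 2 expressed Xist, and in P2 they were also the libraries with liver transcripts; the part of either in the level was not tested. The log2 fold change over P2 was 0.26 ± 0.34 in P10 PBS and 0.46 ± 0.33 in P10 EV, and all groups overlapped. Without the P2 library that stood apart these values were 0.61 and 0.81, the highest with 1 library left out. The lowest with 1 library left out were 0.02 in P10 PBS and 0.21 in P10 EV. Without the libraries with liver transcripts the values over P2 were 0.80 and 1.14, and St3gal5 was then called higher in P10 EV. That fit kept only replicates 3 and 4 of P2 and called 3335 genes in all between P10 EV and P2.

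St8sia2 and St8sia4, the polysialic acid synthases, had few reads and ranked 15 to 17 of the 20 family genes by mean FPKM in each group. St8sia2 lies at chromosome 7, 73939119 to 74013690, and St8sia4 at chromosome 1, 95587682 to 95667571, both on the minus strand. St8sia2, the form that prevails in the developing brain, had 4.07, 3.07, 4.99 and 3.05 CPM at P2 (37 to 59 reads). P10 PBS libraries had 0.545, 1.38, 2.25 and 1.45 CPM (8 to 24 reads), all below the P2 libraries, and P10 EV libraries 0.828, 2.77, 4.36 and 1.86 CPM (14 to 53 reads), which overlapped both. Between P10 EV and P10 PBS libraries of the same number, the log2 ratio of St8sia2 was 0.60, 1.01, 0.96 and 0.36, above 0 in 4 of 4. Its log2 fold change was -1.45 ± 0.48 for P10 PBS over P2, 0.80 ± 0.49 for P10 EV over P10 PBS and -0.64 ± 0.46 for P10 EV over P2. St8sia4, the form that prevails in the adult brain, had 9.13, 3.87, 8.80 and 9.40 CPM at P2, 1.91, 3.95, 3.56 and 2.61 CPM in P10 PBS, and 3.07, 2.69, 4.85 and 11.8 CPM in P10 EV. One P2 library was at the level of P10 PBS, and 1 P10 EV library was above all of P2. The log2 fold change was -1.38 ± 0.46 for P10 PBS over P2 and 0.91 ± 0.46 for P10 EV over P10 PBS, and the second value was 0.24 without replicate 4 of P10 EV. Neither gene was called in any comparison or in any alternative.

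Dcx, a marker of young neurons that carry polysialic acid, was uneven as well. It was at 2.35, 19.0, 29.2 and 17.6 CPM at P2, 7.97, 8.45, 1.78 and 6.03 CPM in P10 PBS and 8.39, 4.11, 10.69 and 19.0 CPM in P10 EV, and its order over libraries differed from that of both enzymes. In P10 EV the library with the most St8sia4 also had the most Dcx. At P2 replicate 1 had the least Dcx and a high St8sia4 level, and replicate 2 had the least St8sia4 at 19.0 CPM of Dcx. In P10 PBS the library with the most St8sia2 had the least Dcx. The order of 4 libraries, with few reads for both enzymes, cannot show which cells these transcripts came from. Of the 7 neuron markers, 6 reached 1 CPM in each group, with a summed level of 548 to 727 CPM at P2, 488 to 738 CPM in P10 PBS and 468 to 657 CPM in P10 EV; Stmn2 was at 0 in P10 PBS. The part of young neurons, or of the oligodendrocyte lineage cells with Sox10 and Pdgfra, in the St8sia2 and St8sia4 levels was not tested.

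**Figure D4:**
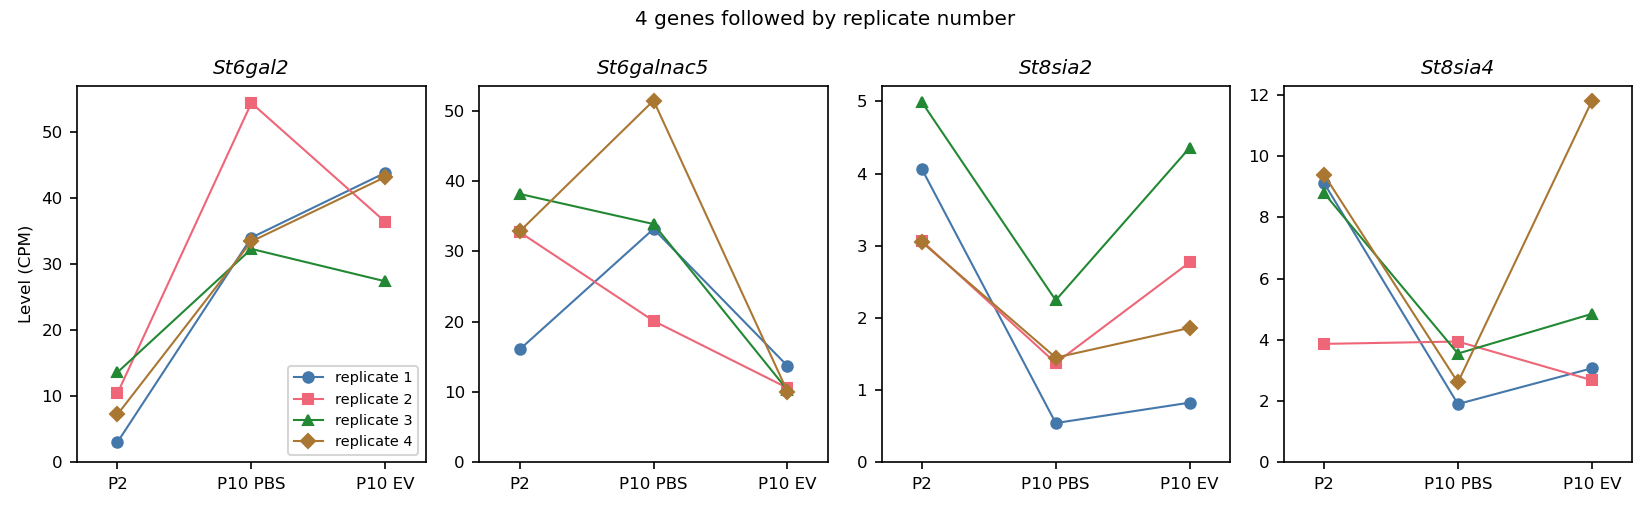
Levels (CPM, linear axis from 0) of St6gal2, St6galnac5, St8sia2 and St8sia4 at P2, P10 PBS and P10 EV, with lines joining libraries of the same replicate number, which carry the same culture code. All 4 lines of St6gal2 go up from P2 to P10 PBS, all 4 of St6galnac5 go down from P10 PBS to P10 EV, and the P10 EV point of St8sia4 at 11.8 is replicate 4.

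The 10 family genes not among those described gave a background for these values. St6galnac1, St8sia3 and St8sia6 had 8, 41 and 40 reads over the 12 libraries and were not tested. The other 7 were tested, and 0 were called in any comparison in edgeR; at an unadjusted p under 0.05 there were 3 between P10 PBS and P2, 2 between P10 EV and P10 PBS and 0 between P10 EV and P2, and no other tool or alternative called one. Their median log2 fold change was 0.38 for P10 PBS over P2, -0.409 for P10 EV over P10 PBS and -0.004 for P10 EV over P2. The values 0.38 and -0.409 share the P10 PBS libraries with opposite sign, so they are not separate evidence of each other. St3gal1, which caps O-glycans, had 7.77 ± 2.54 CPM at P2, 14.2 ± 4.002 in P10 PBS and 9.42 ± 2.09 in P10 EV (SD, n = 4), with a log2 fold change of 0.87 ± 0.28 for P10 PBS over P2 (adjusted p = 0.194, edgeR). St3gal6 had 9.05 ± 0.804, 12.97 ± 2.93 and 8.24 ± 1.41 CPM. Its log2 fold change was 0.52 ± 0.19 for P10 PBS over P2 and -0.65 ± 0.19 for P10 EV over P10 PBS (adjusted p = 0.268 and 0.543, edgeR). For P10 EV over P2 it was -0.14 ± 0.19 (adjusted p = 0.733, edgeR). St3gal2, which caps gangliosides and O-glycans, had 52.3 ± 6.92, 58.2 ± 8.52 and 52.1 ± 2.28 CPM. St3gal3 had 27.5 ± 2.83, 28.8 ± 2.17 and 25.2 ± 2.26 CPM, and St3gal4 9.07 ± 2.23, 11.8 ± 2.06 and 8.90 ± 1.03 CPM (SD, n = 4). St6galnac2, an O-glycan enzyme, had 5.85 ± 1.24, 5.51 ± 0.462 and 7.10 ± 1.04 CPM, and its log2 fold change for P10 EV over P10 PBS was 0.37 ± 0.20 (adjusted p = 0.744, edgeR). St8sia5, which extends gangliosides with further sialic acids, had 0.95 ± 0.35 for P10 PBS over P2 (adjusted p = 0.251, edgeR), and this value was 0.55 to 1.22 over the alternatives. The FPKM of all 20 genes summed to 50.2 ± 1.504 at P2, 57.8 ± 5.06 in P10 PBS and 52.2 ± 2.09 in P10 EV (SD, n = 4), and that of the 10 described to 27.7 ± 1.43, 30.1 ± 3.32 and 29.0 ± 1.52. The first sum in P2 (48.77 to 52.25 FPKM) lay just below P10 PBS (52.7 to 63.45 FPKM), and P10 EV (50.82 to 55.35 FPKM) overlapped both. FPKM leaves out the TMM factors. These were 0.9671 for the highest of these P2 libraries and 0.9929 for the lowest of these P10 PBS libraries. So narrow a gap depends on the scaling, and nothing is read from it. For the 10 described, the ranges of the sum overlapped among all groups, from 25.9 to 33.8 FPKM over the 12 libraries.

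Genes that make, carry and remove sialic acid were mostly not called. Of 7 genes of sialic acid synthesis and transport, all tested, 0 were called in any comparison, and the median log2 fold change was 0.12 for P10 PBS over P2 and 0.03 for P10 EV over P10 PBS. Nans, an enzyme of sialic acid synthesis, was at 0.25 ± 0.16 and 0.03 ± 0.16. Slc35a3, which brings a nucleotide sugar other than that of sialic acid into the Golgi, was at 0.12 ± 0.18 and 0.06 ± 0.18. Of 9 genes of sialic acid removal and modification, 6 were tested and 0 called, with medians of 0.02 and -0.30. Ctsa, the lysosomal partner of sialidase, had -0.70 ± 0.24 for P10 EV over P2 (adjusted p = 0.16, edgeR), and Siae, which removes acetyl groups from sialic acid, -0.17 ± 0.16 (adjusted p = 0.561).

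The 6 genes of the ganglioside core, 5 of them tested, had medians of 0.08 and -0.17 and no call. B4galt5 and B4galt6, the enzymes that make lactosylceramide, the substrate of St3gal5, were at 0.30 ± 0.20 and 0.49 ± 0.18 for P10 PBS over P2 (adjusted p = 0.514 and 0.257, edgeR). The 7 genes of ganglioside breakdown in the lysosome were all tested, and 0 were called in any comparison. Their median was -0.30 for P10 PBS over P2 and -0.49 for P10 EV over P2, with 7 of 7 below 0 in each, where 8222 and 8217 of all 16058 genes were below 0. Without replicate 3 of P2, Psap was at 0.11 for P10 PBS over P2. Psap, which gives rise to the saposins, was at 499, 649, 1137 and 752 CPM at P2 and at 560, 473, 506 and 417 CPM in P10 EV, a log2 fold change of -0.63 ± 0.22 (adjusted p = 0.159, edgeR), with its lowest P2 library inside the P10 EV range. Gm2a, the activator of GM2 breakdown, was at -0.54 ± 0.29 (adjusted p = 0.321). The 3 carriers of polysialic acid had 0 calls: Ncam1 had a log2 fold change of -0.10 ± 0.19 for P10 PBS over P2 and -0.21 ± 0.19 for P10 EV over P10 PBS, and Nrp2, which carries it on other cells, -0.01 ± 0.34 and 0.56 ± 0.34. Of 9 sialic acid binding lectins, 0 had enough reads to be tested.

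Mgat4a, which starts an N-glycan branch that ends in galactose and sialic acid, was the 1 gene called among 13 tested (of 14) that build such branches. In P2 its libraries had 17.5, 31.0, 15.0 and 20.4 CPM, in P10 PBS 44.5, 49.6, 41.4 and 38.1 CPM, and in P10 EV 50.3, 54.8, 41.0 and 41.7 CPM. Both P10 groups lay above P2 with no overlap. Mgat4a rose by a log2 fold change of 1.05 ± 0.21 in P10 PBS (adjusted p = 0.0304, edgeR) and of 1.16 ± 0.21 in P10 EV (adjusted p = 0.0329) over P2, higher in 4 of 4 libraries each, and P10 EV over P10 PBS was 0.11 ± 0.20. Over 23 alternatives it was called in 15 for each comparison with P2, with adjusted p from 0.000227 to 0.156 for P10 PBS and from 2.86e-05 to 0.0995 for P10 EV. The branch list had a median of -0.07 for P10 PBS over P2 and of -0.13 for P10 EV over P10 PBS, so its call rests on 1 gene.

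**Figure D5:**
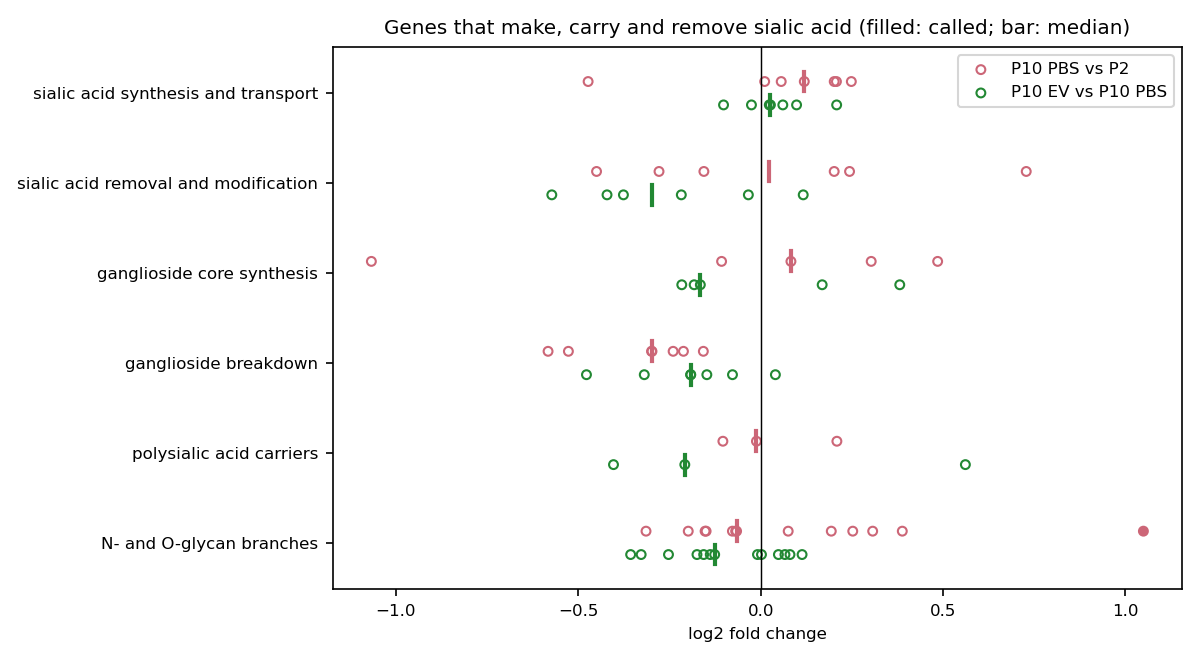
Log2 fold change of each tested gene in 6 lists around the sialyltransferases, for P10 PBS over P2 and P10 EV over P10 PBS; bars are list medians and the filled point was called. The filled point is Mgat4a at 1.05, and 0 genes of the other 5 lists, ganglioside breakdown with its median of -0.30 included, were called.

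The genes with a pattern most like St6gal2 were found by the root mean square difference of centred log2(CPM + 1) over the 12 libraries, among 11592 genes, where a smaller value is closer. Frk, a tyrosine kinase, was closest at 0.484, followed by Adora2b, an adenosine receptor, at 0.566, Gria4, a glutamate receptor subunit, at 0.589, Pcyt1b, an enzyme of phosphatidylcholine synthesis, at 0.601 and Brinp3 at 0.601. Frk had 1.80 ± 0.729 CPM at P2, 8.79 ± 1.32 in P10 PBS and 6.01 ± 1.54 in P10 EV (SD, n = 4). Gria4 had 32.4 ± 11.1, 114.6 ± 5.91 and 65.4 ± 14.3 CPM, so its P10 EV level lay below its P10 PBS level where that of St6gal2 did not. By the same measure the other 9 sialyltransferases lay at 0.904 (St6galnac4) to 1.58 (St8sia4) from St6gal2. These genes were picked for likeness, and no test is given.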

How the data were processed

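Polyadenylated RNA was sequenced as paired-end TruSeq libraries, per the labels' protocols. The authors deposited raw counts per gene and FPKM, counts scaled by gene length and library total; 0 cells differed between both deposited tables. HISAT2 2.0.4 and StringTie 1.3.0 are named in the submitters' processing notes, with no role; the program that counted reads, its use of strand and the build: not given in the sources used here. GENCODE M21 (GRCm38) holds 34267 of the gene identifiers, 80.79% of them with the same coordinates, and all 10 sialyltransferases described have the same coordinates there. Promoters are from RefSeq (GRCm38.p6).

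From the counts, genes were filtered (filterByExpr, minimum count 10), scaled by TMM and fitted with the quasi-likelihood test of edgeR 4.0.16 over all 12 libraries (9 residual degrees of freedom), 1 mean per group. Benjamini-Hochberg adjustment ran over 16058 genes, and a gene was called under 0.05. P-values measure only the spread between these libraries. The fit was tested on simulated data. The members and gene lists were chosen with earlier results of these data known. From each list, called genes are named, or otherwise up to 2 of the highest mean CPM. For St6gal2, the 5 closest genes with a mean of at least 5 CPM over all libraries are named.

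Deviations from the group means correlated between P10 EV and P10 PBS libraries of the same number at 0.367, 0.137, 0.121 and 0.221. P10 EV replicates 1, 2 and 4 matched the P10 PBS library of their own number best, and replicate 3 matched replicate 4 best. The culture codes in the labels pair all of them by number. The block on replicate number changed no call of a sialyltransferase. Alternatives were DESeq2 1.42.0 (size factors, Wald test), limma 3.58.1 (voom; trend on log2(FPKM + 1) and log2(FPKM + 0.1)), no filter, the 8 libraries of a comparison alone, a replicate block, a sex term, a fold of at least 2, omission of the libraries with liver transcripts (Alb over 1 CPM) and of each library. The 8 libraries with a replicate block were added after seeing the data.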

Additional observations from a re-analysis of the deposited data

Results flagged for a closer look

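Each group of 4 libraries was examined for a single library far from the other 3 by Dixon's critical value. The genes examined were the sialyltransferases, the pathway genes named and the genes named as most like St6gal2. Of 99 groups, 6 were picked out, and chance picks about 1 in 20. For St6gal2, replicate 2 of P10 PBS was at 54.35 CPM and the others at 32.28 to 33.99. For St6galnac5, replicate 1 of P10 EV was at 13.71 CPM and the others at 10.06 to 10.58. For St8sia4, replicate 2 of P2 was at 3.872 CPM and the others at 8.797 to 9.40. Outside the 10 genes, St8sia5 was at 15.05 CPM in replicate 1 of P10 PBS (others 5.955 to 7.069), Psap at 866.3 CPM in the same library (606.6 to 636.3), and Pcyt1b at 33.32 CPM in replicate 2 of P2 (13.77 to 17). The P10 PBS and P2 libraries of St6gal2 and the P10 EV and P10 PBS libraries of St6galnac5 did not overlap with these libraries included.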

How the results depend on the processing

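Of 2277 recomputed log2 fold changes of 33 genes, 24 moved by more than the replicate spread and 0 of the called ones changed sign. St6gal2 was called in 20 of 23 alternatives between P10 PBS and P2 and in 17 of 23 between P10 EV and P2; St6galnac5 in 1 of 23 between P10 EV and P10 PBS and in 6 of 23 between P10 EV and P2. The 7 other sialyltransferases had 0 calls in every alternative.

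Counts of called genes depended on the fit; the cause was not tested. Between P10 PBS and P2 (149 genes, 1 of the 10), the DESeq2 Wald test called 592, the 8 libraries alone 38 (0 of the 10), the sex term 252, the fit without libraries with liver transcripts 2320 (3 of the 10: St6gal1, St6gal2, St6galnac3), and the 8 libraries with a block 5 (0 of the 10). Between P10 EV and P10 PBS (0 and 0), the counts were 67 with DESeq2 (1 of the 10: St6galnac5), 2 with the 8 libraries alone and 17 with these and a block. Between P10 EV and P2 (94 genes, 1 of the 10), they were 924 with DESeq2, 30 with the 8 libraries alone, 167 with the sex term, 3335 without libraries with liver transcripts and 19 with the 8 libraries and a block; of the 10, DESeq2, no filter and the sex term called 2 (St6gal2, St6galnac5), the 8 libraries alone, with or without a block, 0, and the fit without liver libraries 5 (St6gal1, St6gal2, St6galnac3, St6galnac5, St3gal5).

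Leaving out 1 library gave 41 genes (without replicate 1 of P10 PBS) to 1206 (without replicate 1 of P2) between P10 PBS and P2, 0 to 1 between P10 EV and P10 PBS, and 8 to 2821 between P10 EV and P2, the highest without replicate 1 of P2. Of the 10, 0 to 1 were called between P10 PBS and P2 (0 without replicate 4 of P2) and 0 to 4 between P10 EV and P2. The 4, without replicate 1 of P2, were St6gal1, St6gal2, St6galnac5 and St8sia1; without replicate 2 of P10 PBS they were 2, St6gal2 and St6galnac5.

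The replicate block over 12 libraries called 167, 0 and 67 genes in the 3 comparisons, and St6gal2 in both against P2. Same-number correlations were -0.078, -0.094, -0.065 and 0.223 between P10 PBS and P2 and 0.02, 0.155, 0.174 and 0.173 between P10 EV and P2. Their culture codes match, but only 1 of 4 and 2 of 4 P10 libraries matched their own number best. With 8 to 59 reads a library, depth limits St8sia2 most among the 10.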
